A study of Mus musculus with 6 samples.

Results

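Nerve injury and regeneration genes were examined in dorsal root ganglia of mice at postnatal day 4. The set was chosen by gene name and holds 10 genes of the 17157 with a symbol on the array, which 13 probes measure: Atf3, Jun, Sox11, Sprr1a, Gadd45a, Ecel1, Flrt3, Socs3, Tnfrsf12a and Anxa1. A sensory neuron whose axon is cut switches on a set of genes, led by transcription factors such as ATF3, JUN and SOX11, that is absent or low in the intact adult ganglion and accompanies regrowth. ATF3 is widely used to mark injured sensory neurons, and it binds DNA as a dimer with JUN and related proteins. In young ganglia some of these genes, such as Sox11, are also part of normal axon growth.

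The study compared WT littermates with dt27J mice, both on the C57BL/6 background. dt27J is an allele of Dst, which encodes dystonin, a large linker of the cytoskeleton whose loss gives a sensory neuropathy, and the series places day 4 before the phenotype. RNA came from 3 animals of each genotype, drawn from 2 litters, and each animal had its own single-colour array. The labels carry 2 dates: WT 1, WT 2, dt27J 1 and dt27J 2 share the first, and WT 3 and dt27J 3 the second, on a second slide. How the dates relate to the litters is not known here. The question asked here is whether Atf3 differed between the genotypes with or without the rest of the set.

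Of 41174 probes, controls aside, each array had 63.1% to 71.5% well above background, and 26248 entered the test. The array number limits the precision. Dst was lower on its 3 tested probes in dt27J, the brightest at 15.6% of WT (adjusted p = 0.0341, limma), with no overlap between the genotypes on any of them. This checks the labels only in part, since the altered part of Dst is not given. All 9 tested sensory neuron markers, Isl1, Pou4f1, Avil and Prph among them, were well above background on all 6 arrays. Signals below are given as a percent of each array's 75th percentile of signal. Differences are log2 values, dt27J minus WT, with the standard error (SE) of a limma fit that has date as a block. The p values are adjusted over every probe tested, and the threshold is 0.05. Levels of different probes are not compared, since probes differ in brightness. The tissue is whole ganglia, so a change in RNA per cell and a change in the number of cells of a type cannot be told apart.

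The stretches before the start sites of 3 of the genes are shown because each holds a different one of the 4 elements searched. Sequences are from RefSeq on GRCm38.p6, run 5′ to 3′ on the minus strand and end at the base before the start site, and capitals mark the element found. Atf3, at chr1:191183334-191183583, holds a C/EBP-ATF element (TGATGCAA, here as its reverse complement), to which ATF4 dimers are known to bind. Sprr1a, at chr3:92485882-92486131, holds 2 AP-1 elements (TGACTCA, here as the reverse complement), the kind that JUN dimers bind. Socs3, at chr11:117969367-117969616, holds a STAT element (TTCNNNGAA).
Atf3: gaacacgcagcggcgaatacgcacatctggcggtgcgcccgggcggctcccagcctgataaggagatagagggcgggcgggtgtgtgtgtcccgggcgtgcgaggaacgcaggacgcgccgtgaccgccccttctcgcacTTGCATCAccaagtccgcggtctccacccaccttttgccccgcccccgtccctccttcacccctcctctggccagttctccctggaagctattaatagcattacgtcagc
Sprr1a: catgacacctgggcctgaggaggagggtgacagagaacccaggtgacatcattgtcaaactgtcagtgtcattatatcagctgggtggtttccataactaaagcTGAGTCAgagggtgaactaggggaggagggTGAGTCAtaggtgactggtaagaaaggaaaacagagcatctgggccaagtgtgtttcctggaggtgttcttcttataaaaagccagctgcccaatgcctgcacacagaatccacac
Socs3: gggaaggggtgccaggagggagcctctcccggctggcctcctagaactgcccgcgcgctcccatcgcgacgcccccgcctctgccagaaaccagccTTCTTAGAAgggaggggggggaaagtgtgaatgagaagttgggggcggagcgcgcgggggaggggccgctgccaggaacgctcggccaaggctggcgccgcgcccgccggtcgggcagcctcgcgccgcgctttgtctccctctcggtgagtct
With both strands searched, the C/EBP-ATF element was in 0.791% of 32851 windows of this length, the AP-1 element in 4.46% and the STAT element in 7.02%. All 10 genes had a window, and the other 7 held none of these letters. The cyclic AMP response element in its full form (TGACGTCA), present in 1.55% of windows, was in none of the 10. A match is a description of the sequence and not evidence of binding.

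Of the 10 genes, counted by their brightest probe, 1 passed the threshold, which was Atf3, and 9 did not. Over all 13675 genes tested the share past it was 2.87% in either direction with 1.35% higher and 1.52% lower in dt27J. Of the 10, 7 had a positive and 3 a negative difference, and the median was 0.36, beside -0.031 over all genes. In 2 genes, Atf3 and Tnfrsf12a, every dt27J array lay above every WT array, as in 13.6% of all genes, and in the other 8 the groups overlapped. Each of the 10 genes entered the test, and 12 of the 13 probes exceeded background on all 6 arrays.

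**Figure D1:**
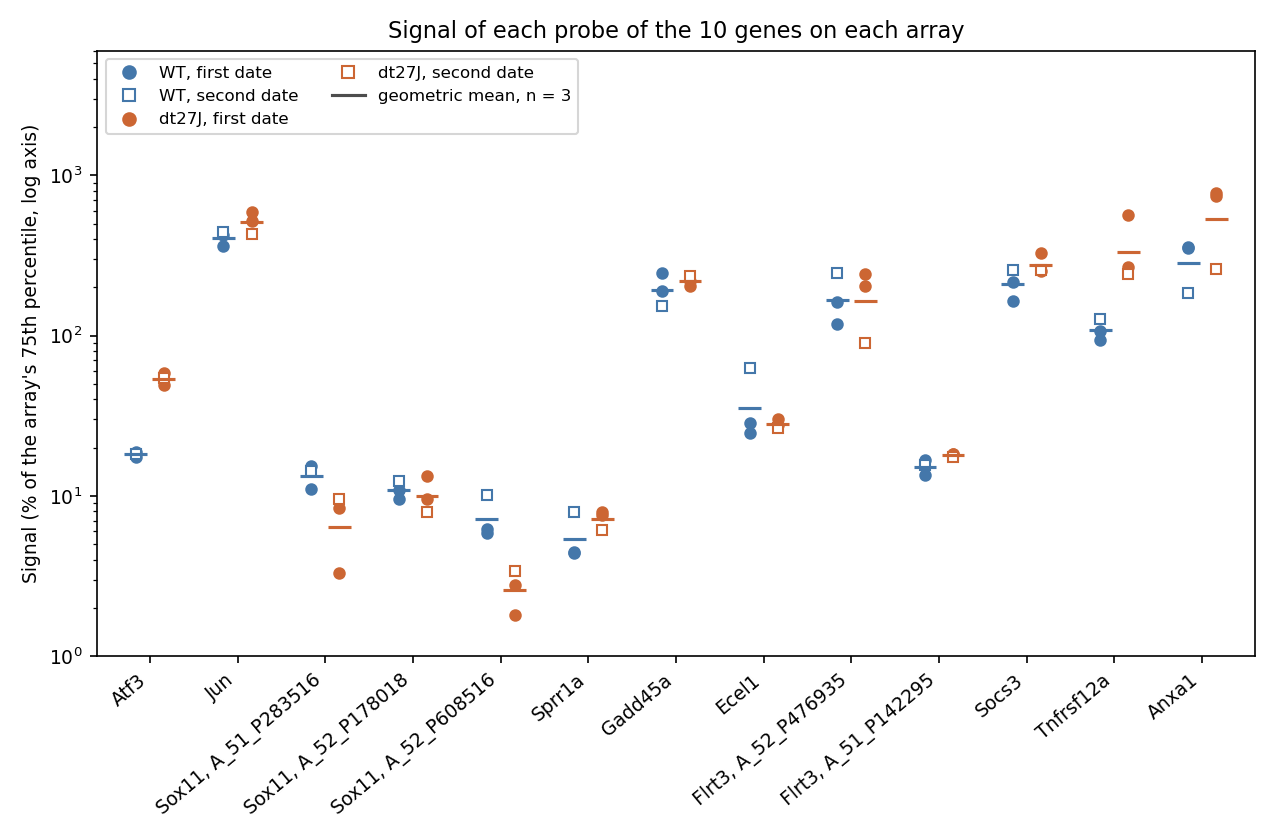
Signal of the 13 probes of the 10 genes on each array, as a percent of the array's 75th percentile on a log axis; filled circles are the first date, open squares the second, and bars the geometric mean of 3 arrays. Atf3 arrays form separate tight groups by genotype, while Anxa1 and Ecel1 spread as widely within WT as between genotypes.

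Atf3 encodes the transcription factor of the activating transcription factor family that injury induces in sensory neurons. Its signal was 17.4%, 18.9% and 18.3% in WT 1, 2 and 3, and 58.1%, 49.3% and 54.3% in dt27J 1, 2 and 3. All dt27J arrays lay well above all WT arrays, and the arrays of a genotype differed little. Atf3 rose by 1.56 (log2, SE 0.19, 3 arrays in each genotype), a ratio of 2.95 with a 95% interval of 2.16 to 4.04 (adjusted p = 0.0377, limma). Of the 26248 probes, 62 had a smaller p, and 86 probes past the threshold had a larger rise. The difference was 1.56 within the first date and 1.57 within the second, where 1 array stands against 1. Under the other settings the size lay between 1.16 and 1.64, except after normexp background correction (0.81). The call was less stable: the adjusted p was 0.0515 with date left out of the fit, 0.0933 with dim probes kept, 0.248 without WT 1, 0.150 without WT 2, 0.173 without dt27J 1 and 0.0591 without dt27J 2.

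Jun encodes the AP-1 subunit that acts with ATF3 and is needed for efficient axon regrowth. Its signal was 425%, 363% and 440% in WT and 520%, 589% and 434% in dt27J. The groups overlapped, since dt27J 3 lay below WT 3. The difference was 0.32 (SE 0.21, ratio 1.25, 95% interval 0.88 to 1.78, adjusted p = 0.361, limma). The Jun probe is spotted 10 times per array, and the SD between its spots was 0.045 to 0.066 (log2), below the SD of 0.15 between WT arrays and 0.22 between dt27J arrays.

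Sox11 encodes a SoxC transcription factor of growing neurons, and its 3 probes disagreed. The probe with the highest mean, A_52_P178018, was at 10.9%, 9.61% and 12.4% in WT and 9.51%, 13.4% and 7.93% in dt27J, which overlap, with a difference of -0.12 (SE 0.26, adjusted p = 0.783). A_51_P283516 was at 15.3%, 10.98% and 14.3% in WT and 3.29%, 8.42% and 9.62% in dt27J. Those groups did not overlap, as with 28.8% of all probes, but its difference of -1.06 (SE 0.39, adjusted p = 0.142) did not pass. The dimmest probe, A_52_P608516, was at 6.25%, 5.88% and 10.1% in WT and 1.81%, 2.79% and 3.41% in dt27J. It fell by 1.48 on the log2 scale (SE 0.23, adjusted p = 0.0442, limma), but only dt27J 3 was well above background among the dt27J arrays. With the authors' deposited values it stood at -0.59 (adjusted p = 0.0603), and after normexp at -0.23 (0.117). The call was also lost with date left out of the fit (0.0685), with dim probes kept (0.0933), and without WT 1 (0.248), WT 2 (0.158), dt27J 1 (0.179) or dt27J 2 (0.0591). None of the Sox11 probes had a positive difference in the main fit, while A_52_P178018 moved to 0.035 with array weights and to 0.14 without the second date. By probes, 2 of the 13 passed, this one and that of Atf3, beside 3.19% of all probes.

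Gadd45a, which encodes a growth-arrest and DNA damage protein induced by stress, was at 247%, 189% and 152% in WT and 203%, 220% and 236% in dt27J. The dt27J values lay within the WT range, and the difference was 0.19 (SE 0.23, adjusted p = 0.626). Socs3, the inhibitor of cytokine signalling through STAT3 that limits regrowth, was at 216%, 165% and 255% in WT and 329%, 253% and 257% in dt27J. WT 3 lay at the level of dt27J 2 and dt27J 3, so the groups overlapped, and the difference was 0.41 (SE 0.24, ratio 1.33, adjusted p = 0.315).

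Tnfrsf12a encodes the receptor for the cytokine TWEAK, which promotes neurite growth and is also made by muscle and connective tissue cells after damage. Its signal was 107%, 94.1% and 126% in WT and 566%, 267% and 243% in dt27J. Every dt27J array lay above every WT array, and dt27J 1 stood apart from the other dt27J arrays. The difference of 1.62 (SE 0.35, ratio 3.07, 95% interval 1.71 to 5.51) was as large as that of Atf3, but its adjusted p was 0.0573 (limma). With the authors' deposited values it was 1.59 (adjusted p = 0.0454). Within the first date it was 1.96 and within the second 0.94, and without dt27J 1 it was 1.21 (adjusted p = 0.185).

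Flrt3 encodes an adhesion protein of the axon surface and has a bright and a dim probe. The bright probe was at 162%, 118% and 248% in WT and 203%, 243% and 90.3% in dt27J, with a difference of -0.028 (SE 0.44, adjusted p = 0.974). On it dt27J lay above WT in the first date (0.68) and below it in the second (-1.45). The dim probe was at 13.5%, 16.7% and 15.5% in WT and 18.2%, 18.2% and 17.6% in dt27J. Those groups did not overlap, and the difference was 0.25 (SE 0.19, adjusted p = 0.433). Ecel1, which encodes an endopeptidase-like membrane protein that injured neurons make, was at 24.7%, 28.5% and 63.3% in WT and 27.6%, 30.0% and 26.6% in dt27J. WT 3 alone stood high, the groups overlapped, and the difference was -0.34 (SE 0.31, adjusted p = 0.509).

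Sprr1a encodes a small proline-rich protein of the cornified layer of skin that appears in regrowing axons. Its signal was low, at 4.37%, 4.49% and 7.96% in WT and 7.56%, 7.98% and 6.10% in dt27J, and well above background on all 6 arrays. The groups overlapped through WT 3, and the difference was 0.41 (SE 0.28, adjusted p = 0.376). It was 0.81 within the first date and -0.38 within the second. On the first date alone it passed (adjusted p = 0.0267), a setting that called 25.9% of all probes. Anxa1 encodes annexin A1, a calcium-dependent membrane protein that damps inflammation. Its signal was 357%, 350% and 184% in WT and 782%, 744% and 260% in dt27J. In each date dt27J lay above WT, but dt27J 3 lay below WT 1 and WT 2, as both arrays of the second date were low. The difference was 0.91 (SE 0.21, ratio 1.88, 95% interval 1.32 to 2.66, adjusted p = 0.0617, limma), and it was 1.11 and 0.50 within the dates. With the authors' deposited values it was 0.88 and passed (adjusted p = 0.0431), as it did after normexp (0.0483) and without the second date (0.0140).

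**Figure D2:**
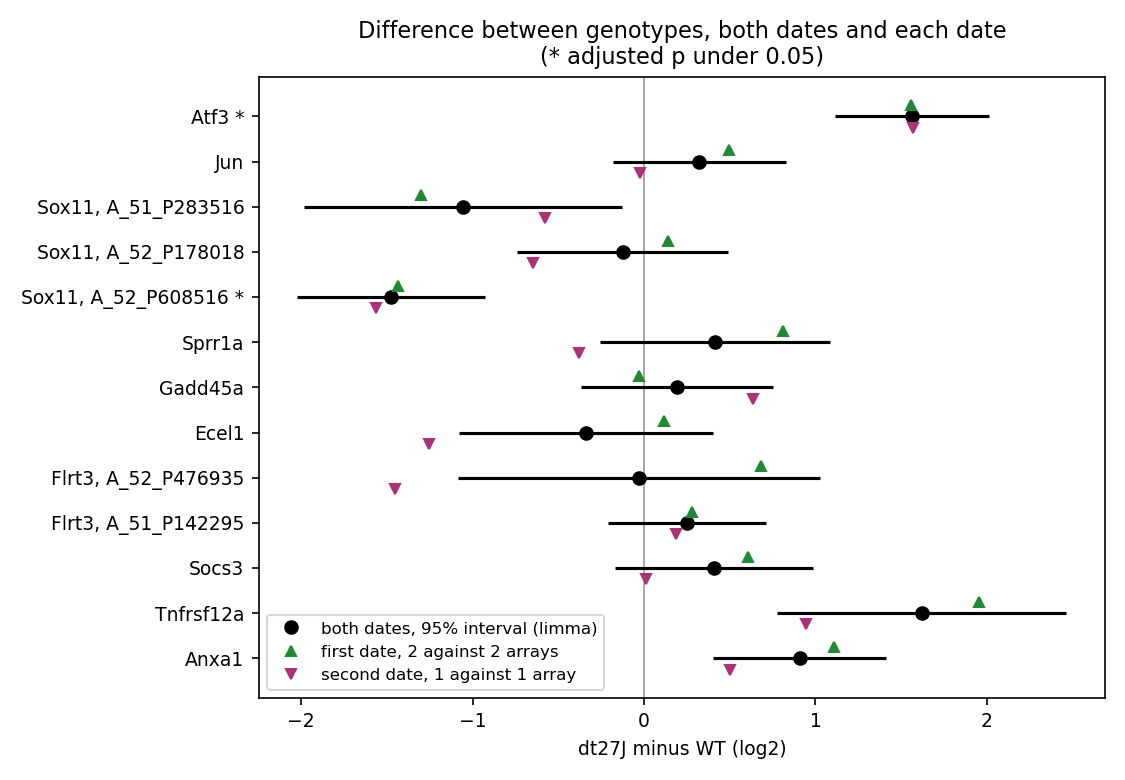
Difference dt27J minus WT (log2) of each probe, with the 95% interval of the limma fit in black and the difference within each date as triangles; a star marks an adjusted p under 0.05. The Atf3 triangles coincide near 1.56, while those of Flrt3 A_52_P476935, Ecel1 and Sprr1a lie on opposite sides of 0.

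The rise of Atf3 was set against the difference of each other gene by fitting the gap between the probes on each array. Compared with Jun it was larger by 1.24 (95% interval 0.65 to 1.83), compared with Socs3 by 1.15 (0.56 to 1.75), compared with Sprr1a by 1.15 (0.45 to 1.84) and compared with Gadd45a by 1.37 (0.74 to 2.00). Atf3 stood above Ecel1 by 1.90 (1.15 to 2.65), and above the Flrt3 probes by 1.59 (0.56 to 2.62) and 1.31 (0.80 to 1.83). The gaps to the Sox11 probes were 1.69 (0.99 to 2.38), 2.62 (1.63 to 3.61) and 3.04 (2.39 to 3.69). The last is against the probe that exceeded background on 1 dt27J array, whose own difference was -0.23 after normexp. Compared with Anxa1 the gap was 0.65 (0.098 to 1.21). With Tnfrsf12a it was -0.056, and the interval of -0.82 to 0.71 leaves room for either gene to differ more. These 12 intervals share the Atf3 values and are not adjusted for their number. They were fitted with the main values only, and the gaps depend on the background correction. After normexp the differences were 0.81 for Atf3, 0.78 for Anxa1, 1.27 for Tnfrsf12a and 0.28 for Jun.

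The differences within the dates were alike for Atf3 and apart for most of the other genes. By their brightest probes, 4 of the 10 genes had the same sign in both dates, namely Atf3, Tnfrsf12a, Anxa1 and Socs3. The median difference was 0.65 within the first date and -0.0066 within the second. Of the 13 probes 6 had opposite signs in the dates, and 43.2% of all tested probes did. No probe of the set passed a test of the genotype by date interaction (limma, smallest adjusted p = 0.0626, for the bright Flrt3 probe), which 0.831% of all probes passed. At an unadjusted p under 0.05, 3 of the 13 had an interaction, Flrt3, Ecel1 and Sprr1a, and 27.5% of all probes did.

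Genes of the pathways around the set were taken from lists chosen with earlier results of these data known, with a gene counted by its brightest probe. The list of AP-1 and ATF partners holds related genes, not all of which encode proteins that dimerise with JUN or ATF3. Of its 18 genes tested 2 passed, both higher, and 16 had a positive difference (median 0.42). Fosl2, a FOS family subunit, was at 13.2% in WT and 43.1% in dt27J and rose by 1.71 (SE 0.18, adjusted p = 0.0376, limma). Fos rose by 1.64 (SE 0.22, adjusted p = 0.0413). Atf1 stood at 0.68 (adjusted p = 0.0870). Atf4 and Ddit3, which encode factors of the cell stress response, were chosen after their values were seen. They stood at 0.19 (adjusted p = 0.558) and 0.18 (0.573).

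Of 38 other regeneration-associated genes tested, 1 passed, Sez6l, a neuronal membrane protein that fell by 1.12 (SE 0.20, adjusted p = 0.0472) on a dim probe well above background on 1 dt27J array, with a second probe at -0.41. Of the rest, Cd44, an adhesion receptor, stood at -1.16 (adjusted p = 0.0724) and Dpysl3, a growth cone protein, at -0.96 (0.0826). In all 16 differences were positive and 22 negative, and the median was -0.22. The genes that follow were chosen after seeing their values. Gap43, Gal and Hspb1, classical injury genes, had differences of -0.25 (adjusted p = 0.549), -0.46 (0.189) and -0.52 (0.169). Crem, Cebpb and Cebpd, which encode leucine zipper transcription factors, had differences of 0.84 (adjusted p = 0.0951), 0.89 (0.114) and 0.74 (0.162).

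Npy and Vip, peptides that injured neurons make, were also chosen after their values were seen, because their arrays crossed between the dates. Npy was at 14.7%, 16.6% and 373% in WT and 329%, 525% and 4.10% in dt27J. Vip was at 0.687%, 0.652% and 42.0% in WT and 25.8%, 24.3% and 2.00% in dt27J, and in WT exceeded background on 1 array. WT 3 stood with dt27J 1 and dt27J 2 in both genes, and dt27J 3 with or near WT 1 and WT 2. Dst did not cross in this way. Over both dates Npy stood at 0.99 (adjusted p = 0.783) and Vip at 2.02 (0.485), with 4.74 and -6.51 within the dates for Npy and 5.22 and -4.39 for Vip.

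Of the DLK-JNK pathway, which carries the injury signal along the axon to JUN, 2 of 14 genes tested passed, both lower, and 11 had a negative difference (median -0.51). Sarm1, which drives degeneration of cut axons, was at 56.4% in WT and 16.0% in dt27J and fell by 1.82 (SE 0.33, adjusted p = 0.0472). Map2k7, a kinase that activates JNK, exceeded background on 3 of 3 WT arrays but was not well above background on any dt27J array. It was at least 2.11-fold lower in dt27J (adjusted p = 0.0479). That bound sets the WT mean against the lowest signal of any probe well above background on the dt27J arrays, or the probe's own signal where higher. Dusp8, a JNK phosphatase, stood at -0.75 (adjusted p = 0.0661). Of 22 genes of the gp130-JAK-STAT3 pathway, by which injury cytokines act and which induces Socs3, 0 passed in the limma fit, 4 had an unadjusted p under 0.05 and 1 passed with the authors' deposited values (median 0.039). Over all genes tested, 27.5% had an unadjusted p under 0.05, which is the background for such counts in every list. The receptor genes Il11ra1 and Cntfr stood at 1.16 (adjusted p = 0.0598) and -1.07 (0.0601).

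Of 17 genes of p53 and growth arrest 0 passed in the limma fit, 6 had an unadjusted p under 0.05 and 1 passed with the authors' deposited values (median -0.026), with Gadd45b, a paralogue of Gadd45a, at 0.82 (adjusted p = 0.0732). Of 10 genes around the SoxC family 0 passed, 3 had an unadjusted p under 0.05 and 8 differences were negative (median -0.28), with the paralogues Sox12 and Sox4 at -0.93 (adjusted p = 0.0801) and -0.71 (0.165) and Dcx, a microtubule protein of young neurons, at -0.92 (0.0739). The small proline-rich and cornified envelope genes had 0 of 10 past the threshold (median -0.27) and the FLRT family with its partners 0 of 9 (median -0.55), each with 1 gene at an unadjusted p under 0.05. Among TWEAK and TNF receptor signalling genes 1 of 15 passed, Traf5, an adaptor of TNF receptors that rose 2.30-fold (log2 SE 0.19, adjusted p = 0.0448), and Birc3, an inhibitor of apoptosis, stood at 0.83 (0.0573). Among annexins and their partners 1 of 14 passed, the phospholipase gene Pla2g4a, which rose from 22.8% to 45.6% (log2 SE 0.19, adjusted p = 0.0479), and Anxa4 stood at 0.75 (0.0724). The endothelin-converting and neprilysin family of Ecel1 was listed together with endothelin and its receptors, and 1 of these 9 genes passed. It was the receptor gene Ednrb, which rose by 1.32 (SE 0.21, adjusted p = 0.0442, limma), with a second probe at 0.32. No peptidase gene of the family passed, and the smallest adjusted p among them was 0.131 (Ece2, -0.94).

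Sensory neuron genes known to fall after axotomy had 2 of 19 lower and 1 higher past the threshold, with 16 negative differences and a median of -0.45. Of those named here, Scn11a, a nociceptor sodium channel, fell from 1586% to 690.9% (log2 SE 0.23, adjusted p = 0.0495). Kcnk2, a potassium leak channel, rose by 1.28 (SE 0.21, adjusted p = 0.0446). The median was -0.78 within the first date and -0.077 within the second. Of 9 general sensory neuron markers 8 were negative, with 1 past the threshold (Tlx3, -2.40, adjusted p = 0.0491, limma). Their median was -1.08, with -0.89 and -0.70 within the dates, and 7 had an unadjusted p under 0.05. Their summed signal was 50627% to 63269% in WT and 37942% to 52942% in dt27J.

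**Figure D3:**
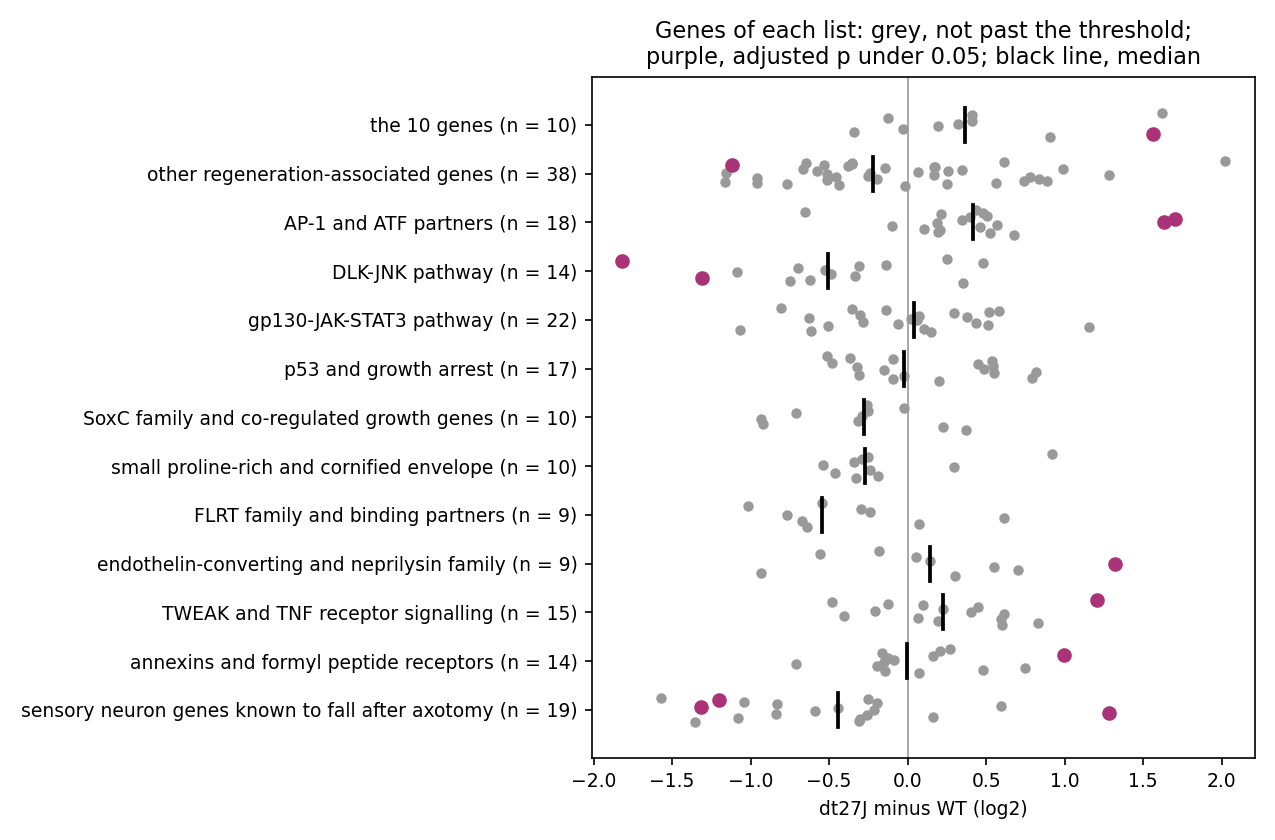
Difference dt27J minus WT (log2) of every tested gene in each list, 1 point per gene by its brightest probe; purple points have an adjusted p under 0.05 and the black line is the median of the list. The AP-1 and ATF partners lie mostly above 0 with Fos and Fosl2 at the right, and the DLK-JNK genes mostly below 0.

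Markers of other cells and tissues were counted in the same way, and their sums are likewise weighted to the brightest probes. All 12 skeletal muscle markers had a positive difference, 5 passed and 10 had an unadjusted p under 0.05 (limma), beside 27.5% of all genes. Their summed signal was 1769% to 6224% in WT and 6458% to 12326% in dt27J, with medians of 2.53 and 0.41 within the dates. Of 8 spinal cord markers tested 7 were negative, 1 passed (Gpr17, fell by 3.70) and 8 had an unadjusted p under 0.05 (limma). Their summed signals were 297% to 2752% in WT and 236% to 393% in dt27J, with medians of -3.96 and -0.0033 within the dates. Mnx1, Gad2, Slc6a5 and Mog were below the filter. The 5 muscle genes past the threshold were also higher in dt27J within the second date. Tcap was at 2.20, Myh1 at 2.18, Mb at 2.13, Ckmt2 at 1.99 and Tnnt3 at 1.203. They were picked by a fit over both dates, so their second-date values are not a separate check. Over both dates a second probe of Myh1 stood at -0.17 and a second probe of Tnnt3 at 1.97. Of the 12 muscle markers 4 had opposite signs in the dates.

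Fibroblast and meningeal markers summed to 32762% to 62794% in WT and 48941% to 97627% in dt27J, with 8 of 10 positive, 0 past the threshold (4 at an unadjusted p under 0.05) and medians of 1.23 and -0.35 within the dates. Macrophage markers summed to 784% to 815% and 859% to 1539%, with 8 of 9 positive and 1 past the threshold (Aif1, rose by 1.01). All 6 neutrophil markers tested were positive and 0 passed (3 at an unadjusted p under 0.05), with sums of 1834% to 1944% and 2192% to 3644%. All 7 endothelial markers were positive and 1 passed (Tek, rose by 1.63), with sums of 1322% to 1851% and 1863% to 3406%. Of 7 satellite glia markers 4 were positive and 1 passed (Cdh19, higher), with sums of 19891% to 32749% and 20960% to 25633%. Of 8 myelinating Schwann cell markers 4 were positive and 2 passed (Egr2 and Gldn, both higher), with sums of 26717% to 39011% and 29715% to 34953%.

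Of 7 markers of injury-state Schwann cells 6 were negative and 0 passed (2 at an unadjusted p under 0.05), with sums of 9922% to 11825% and 7533% to 9555%. Artn, Btc and Runx2 were below the filter there. Gfap and Olig1, which spinal cord glia also express, stood at -2.92 (adjusted p = 0.0843, limma) and -3.63 (0.193). Both were high in WT 1 and WT 2 only, and the groups overlapped. Gfap was at 47.2%, 48.6% and 4.36% in WT and 2.61%, 1.97% and 4.43% in dt27J. Olig1 was at 203%, 207% and 3.08% in WT and 3.80%, 1.42% and 12.6% in dt27J. Keratinocyte markers, which bear on Sprr1a, summed to 58.7% to 74.7% and 53.1% to 68.9%, with 5 of 6 negative, 0 past the threshold (3 at an unadjusted p under 0.05) and Dsg3 below the filter. All 5 erythroid markers tested were positive, with 0 past the threshold and 0 at an unadjusted p under 0.05. The part of these cells in the differences of Tnfrsf12a, Anxa1 and the other genes was not tested.

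**Figure D4:**
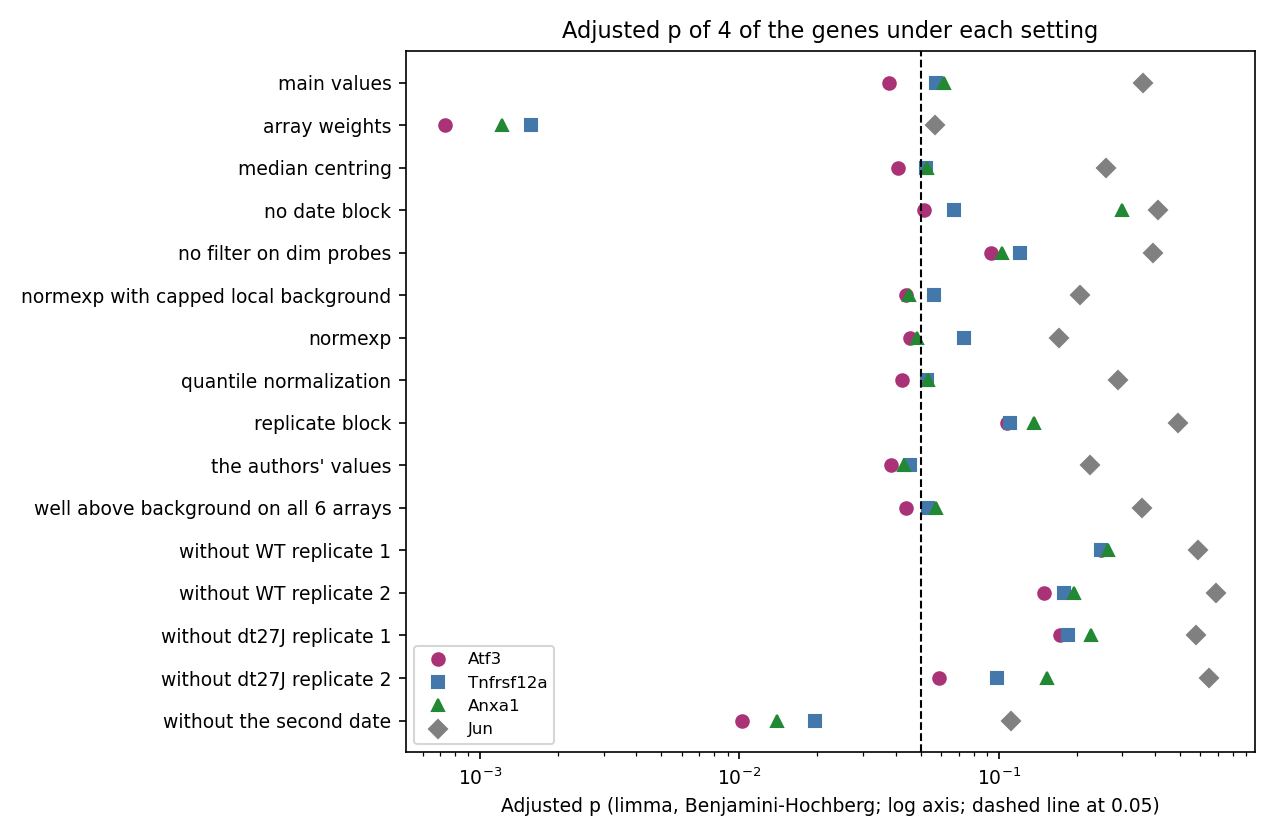
Adjusted p (limma, log axis) of Atf3, Tnfrsf12a, Anxa1 and Jun with the main values and under each other setting; the dashed line is 0.05. Atf3 lies left of the line with the main values and right of it in 7 settings, among them each one that leaves out a single array of the first date, and Jun lies right of it throughout.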

How the data were processed

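Total RNA of 3 WT and 3 dt27J ganglia was labelled with Cy3 and hybridised to 1-colour Agilent arrays, per the labels' protocols. The deposited processed signal is an intensity, background-subtracted and detrended within each array by Agilent Feature Extraction 10.5.1.1, per the file headers. In the authors' deposited table, log2 values are centred on each probe's median, by a normalization between arrays that the labels and headers do not name. The scanner software's 0 or 1 flags per spot, per the file headers, served as filters.

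Each array's log2 processed signals were set relative to their 75th percentile. Control spots and outlier calls were left out and spots of a probe averaged (41086 of 41174 probes kept). A probe was tested if well above background on all 3 arrays of a genotype (26248 probes, 19381 with a symbol). Probes were named by matching accessions to RefSeq transcripts (GRCm38.p6); the array is annotated on mm9. The fit was limma 3.58.1 (lmFit, eBayes) in R 4.3.3 on all 6 arrays with date as a block (3 residual degrees of freedom, 3.74 from the prior), with Benjamini-Hochberg adjustment over all tested probes. It was tested on simulated data.

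The members, lists and the 4 promoter elements were chosen with earlier results of these data known. The rule names every member probe, in each list the 3 genes with the smallest p and any past the threshold, in marker lists also the brightest gene, and the 5 genes most like Atf3. One gene that the rule names is not reported here. Other genes are said to be named after their values were seen, apart from markers used to describe the tissue. Alternatives were no or another block, other scalings, normexp (offset 50, also with local backgrounds held at the 99th percentile), the authors' values, other filters, array weights and leaving out arrays.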

Additional observations from a re-analysis of the deposited data

Results flagged for a closer look

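On 3 probes both dt27J arrays of the first date lay above both WT arrays of that date while dt27J 3 lay below WT 3. They were the bright Flrt3 probe, where the difference was lower in the second date by 2.14 (interaction -2.14, SE 0.40, adjusted p = 0.0626, limma), Sprr1a (-1.19, SE 0.31, adjusted p = 0.0898) and Jun (-0.52, SE 0.34, adjusted p = 0.361). None of these interactions passed the threshold, and the second date rests on 1 array per genotype. For Jun the second-date difference was -0.022, less than the SD of 0.050 to 0.051 between its spots on those arrays.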

How the results depend on the processing

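The Atf3 difference stayed positive in all alternatives run. It was 1.56 without the date block and without the filter on dim probes (adjusted p = 0.0515 and 0.0933, limma), and 1.49 to 1.63 when arrays were left out one at a time. Atf3 passed under median centring, quantile normalization, both forms of normexp, the authors' values, array weights, the filter on all 6 arrays and without the second date (adjusted p between 0.000729 and 0.0455). The count over all probes went from 838 to 12199 with array weights, which did not converge, to 14 without the date block, to 0 without the filter (8485 at an unadjusted p under 0.05) and to 6805 without the second date. It ran from 0 to 6805 when single arrays were left out, with 0 without WT 2 and without dt27J 1 (4990 and 4475 at an unadjusted p under 0.05), 1 without WT 1, 168 without dt27J 2 and 6805 without WT 3 or dt27J 3. Leaving out either second-date array leaves the date term to absorb the other and so repeats the first date.

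The count of the 10 genes past the threshold was 1, and 0 without the date block or the filter. It was 2 after normexp with either background (Atf3 and Anxa1), 3 with the authors' values (also Tnfrsf12a) and 2 by the probe with the smallest p (Atf3 and Sox11). It was 4 with array weights and without the second date (Atf3, Sprr1a, Tnfrsf12a and Anxa1), settings that called 46.5% and 25.9% of all probes, and between 0 and 4 when single arrays were left out. The genotype by date interaction was called for 218 probes, and 405 without the filter. Differences near 0 changed sign with array weights (Sox11 A_52_P178018 0.035, Gadd45a -0.18, Ecel1 0.15, bright Flrt3 0.38), without the second date or 1 of its arrays (0.14, -0.031, 0.12 and 0.68; the lowest or highest value without another array was -0.34, 0.37, -0.53 and -0.36), and for the bright Flrt3 probe under median centring (0.044). The cause was not tested.

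The split of all calls turned with the scaling, from 344 higher and 494 lower to 457 and 382 under median centring, 537 and 440 under quantile normalization, 387 and 321 after normexp and 614 and 561 with the authors' values. The deviations of same-numbered arrays from their group means had correlations of 0.22, -0.15 and 0.062 across probes. The last is for WT 3 and dt27J 3, which share a date and a slide. Deviations from a mean of 3 arrays are also tied to each other. The check therefore cannot tell whether the replicate numbers pair the samples. With the replicate block Atf3 stood at 1.56 with an adjusted p of 0.108, 2 probes were called in all and 0 of the 10 genes.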

Other observations

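The 5 genes whose 6 array values ran closest to those of Atf3, among 13099 genes well above background on all arrays, were Iqgap2, a scaffold of the actin cytoskeleton (Pearson coefficient 0.999), Dusp18, a phosphatase (0.998), Peg12 (0.997), Dbf4, a regulator of DNA replication (0.996), and Gpsm2, a protein of spindle orientation (0.995). They stood at 2.14, 1.22, 0.97, 1.29 and 0.67 in dt27J minus WT, and the first 4 passed the threshold (adjusted p = 0.0349, 0.0431, 0.0495 and 0.0442, limma) while Gpsm2 did not (0.0761). The Atf3 values form 1 tight group per genotype, so these coefficients mostly restate the genotype difference, and no test was made of them. Over all tested probes the arrays did not split by genotype. There the SD of the log2 difference of dt27J 3 was 0.867 from dt27J 1 and 0.898 from dt27J 2. From the WT arrays it was 0.771 to 0.846. Among the injury genes Tnfrsf12a came closest to Atf3, at rank 477 (0.916), then Socs3 (0.693), Jun (0.685), Anxa1 (0.590) and Sprr1a (0.554). Sox11 (-0.31) and Ecel1 (-0.36) ran the other way.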
